A study of Homo sapiens with 2 samples.

Results

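The nuclear pore and import genes are 40 of the 36601 genes in the count tables. They were taken by symbol: every NUP or KPNA gene with a digit after those letters, together with TPR, RANBP2, NDC1, POM121, AAAS, SEH1L, RAE1, KPNB1, XPO1 and RAN. Pseudogenes and antisense transcripts were left out, as was the divergent transcript NUP50-DT. The choice used no measured value. The nuclear pore complex is the channel through the nuclear envelope, built from nucleoporins arranged as stacked rings around a central channel, with filaments on the cytoplasmic side and a basket on the nuclear side. Importin alpha (the KPNA proteins) binds cargo that carries a nuclear localisation signal, importin beta (KPNB1) carries the pair through the pore, and the GTPase RAN releases the cargo inside the nucleus. XPO1 carries proteins out. In dividing human cells the pore is taken apart at mitosis and rebuilt afterwards, and several of its subunits act at kinetochores or on the spindle in between.

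The values are single-cell RNA counts from 2 libraries of A549, an established epithelial cell line from a human lung adenocarcinoma. The squashed library came from cells confined with polydimethylsiloxane micropillars, and the control library from cells kept in 2D culture. All cells of both groups had recovered for 48 h and were sorted alive because they no longer carried a chromosome reporter, which applies to roughly 1 cell in 500. Cells that still carried it were not compared here. With 1 library per group of 1 cell line there is no replicate error: no test between groups was made, every 95% interval is exact and covers counting error only, and each ratio compares 2 libraries. The labels record the same batch for both.

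After filtering, the squashed library held 1930 cells with 23328323 molecules, counted by unique molecular identifier (UMI), and the control library 1906 cells with 27482392 UMIs. Squashed cells were shallower: the median cell had 9330.5 UMIs from 1790 genes in the squashed library and 12458.5 UMIs from 2598 genes in the control library. The libraries shared 4 of their 5706 barcodes. Of 8 epithelial markers 3 were measured (KRT8, KRT18 and KRT7), whereas EPCAM had 0 UMIs in the squashed and 5 in the control library. The fibroblast, immune and endothelial lists had 0 measured members. In CPM, the UMIs of a gene scaled to a common library total, the fibroblast list summed to 6.39 in squashed cells and 7.82 in control cells, the immune list to 1.41 and 2.07, and the endothelial list to 0.0857 and 0.0728. PTPRC, CD3E and CSF1R had 0 UMIs in both libraries, whereas CD14 of the immune list had 32 in the squashed and 56 in the control library. COL1A1 of the fibroblast list had 130 and 158 UMIs.

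A gene was called measured when the mean of its 2 library levels was at least 10 CPM, and 35 of the 40 members were. A UMI is counted once per captured molecule and is not divided by transcript length, so levels of different genes are given side by side without a ranking. RAN, the GTPase that gives transport its direction, stood at 1154 CPM in the squashed library (95% interval 1141 to 1168) and 1324 CPM in the control library (1310 to 1338). KPNA2, an importin alpha, stood at 360.2 CPM (353 to 368) in squashed and 335 CPM (328 to 342) in control cells. KPNB1 stood at 273 CPM (266 to 280) and 281 CPM (275 to 288). XPO1 and TPR had between 79.9 and 132.5 CPM in each library, and the other 30 measured members lay between 9.13 CPM, for NUP133 in the squashed library, and 79.6 CPM, for NUP37 in the control library.

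**Figure D1:**
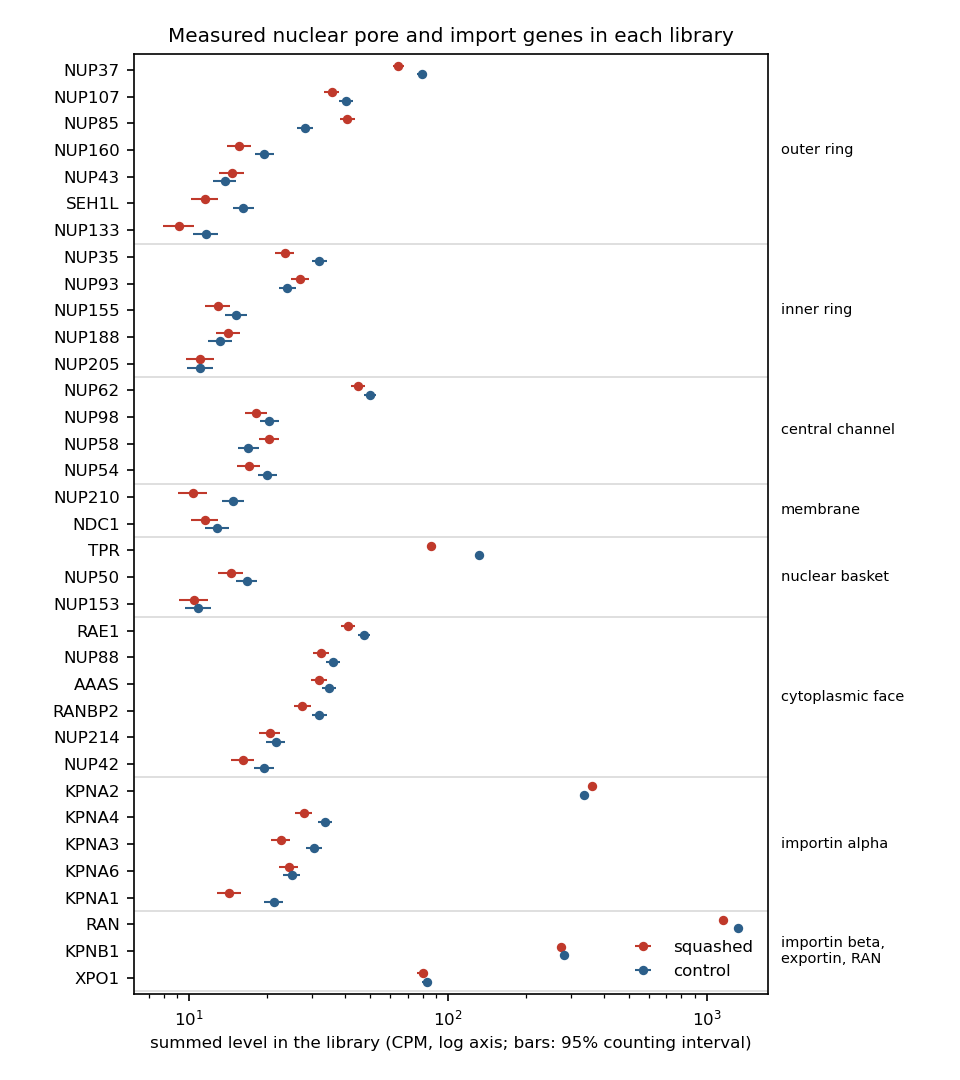
Levels of the 35 measured nuclear pore and import genes by structural or transport class. Points are CPM (log axis) from UMIs summed over the kept cells of the squashed and the control library, with 95% counting intervals. The pairs lie close together for most members. Among the pairs that lie farther apart are those for TPR (86.5 CPM in squashed and 132.5 CPM in control cells), KPNA1 (14.3 and 21.3 CPM) and NUP85 (40.9 and 28.02 CPM).

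The 5 members under this limit were POM121, NUP62CL, KPNA5, KPNA7 and NUP210L. POM121, a membrane nucleoporin, stood at 8.96 CPM in squashed and 9.53 CPM in control cells, and its near-identical copy POM121C at 8.23 and 9.32 CPM, and reads may have been split between the copies. NUP62CL, a relative of NUP62, stood at 7.54 and 10.9 CPM, and KPNA5 at 3.60 and 3.86 CPM. KPNA7, an importin alpha known from oocytes and early embryos, had 5 UMIs in the squashed and 3 in the control library. NUP210L, known from testis, had 0 UMIs in both.

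Between the libraries the machinery as a whole stood close to the rest of the genes. All 40 members summed to 2660 CPM in squashed cells and 2949 CPM in control cells, a log2 ratio of -0.15 (-0.16 to -0.13). Without RAN and KPNA2 the sum was 1146 CPM in squashed and 1290 CPM in control cells (-0.17, -0.19 to -0.15). The median log2 ratio of the 35 measured members was -0.18, beside -0.15 for all 6120 measured genes. Scaling by trimmed mean of M-values (TMM) in place of total UMIs moved the median of all genes to 0.00 and that of the members to -0.03, so a log2 ratio is read against the median of all genes rather than against 0. With TMM scaling AAAS, KPNA6, KPNB1, NUP153, NUP214 and XPO1 lay above 0 instead of under it. Of the 35, 34 lay within 1.5-fold, 1 was lower by that size and 0 were higher, where 11.6% of all measured genes were lower and 2.88% higher. With the cells of 2 clusters left out that came mostly from 1 library (states 3 and 5, described further on, a choice made after the data had been seen), 0 members were lower by 1.5-fold and 1 was higher, where 9.15% and 3.56% of all genes were. The counting interval lay wholly under 0 for 20 members and wholly above 0 for 4, and for 50% and 16.9% of all measured genes.

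The lower member was TPR, the coiled-coil protein that forms the filaments of the nuclear basket. TPR (ENSG00000047410, chromosome 1 from 186311652 to 186375693, minus strand, GRCh38) had 2018 UMIs, or 86.5 CPM (82.8 to 90.4), in the squashed library and 3642 UMIs, or 132.5 CPM (128 to 137), in the control library. Its log2 ratio was -0.62 (-0.69 to -0.54), 0.47 under the median of all genes, and the intervals of the 2 levels did not overlap. The size of the difference rested on which cells were summed: it was -1.13 (-1.25 to -1.0) in cells called G1, -0.14 (-0.25 to -0.02) in cells called G2/M and within 1.5-fold with TMM scaling (-0.46) and without states 3 and 5 (-0.47). The other basket proteins lay closer to the rest. NUP50, which helps to release cargo from importins, was at 14.5 CPM in squashed and 16.7 CPM in control cells (-0.21, -0.42 to -0.00), and NUP153, which anchors the basket, at 10.4 and 10.8 CPM (-0.05, -0.30 to 0.20).

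The member farthest on the other side was NUP85, a subunit of the outer ring, or Y complex, which frames the pore on both faces. NUP85 (ENSG00000125450, chromosome 17 from 75205659 to 75235758, plus strand, GRCh38) had 955 UMIs, or 40.9 CPM (38.4 to 43.6), in squashed and 770 UMIs, or 28.02 CPM (26.1 to 30.1), in control cells. The log2 ratio was 0.55 (0.41 to 0.69), under the 1.5-fold limit. It was past that limit with TMM scaling (0.70), without states 3 and 5 (0.74), in cells called G2/M (0.69) and in cells with at least 2000 genes (0.68). The other ring subunits lay lower. NUP37, which also sits at kinetochores with the rest of the Y complex, was at 64.4 CPM in squashed and 79.6 CPM in control cells (-0.31, -0.40 to -0.21). SEH1L was at 11.5 and 16.2 CPM (-0.49, -0.72 to -0.27), and NUP107, NUP133 and NUP160 had log2 ratios between -0.35 and -0.18. NUP43 was at 0.09 (-0.12 to 0.31). Summed over its 7 members the ring stood at 192 CPM in squashed and 209 CPM in control cells.

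**Figure D2:**
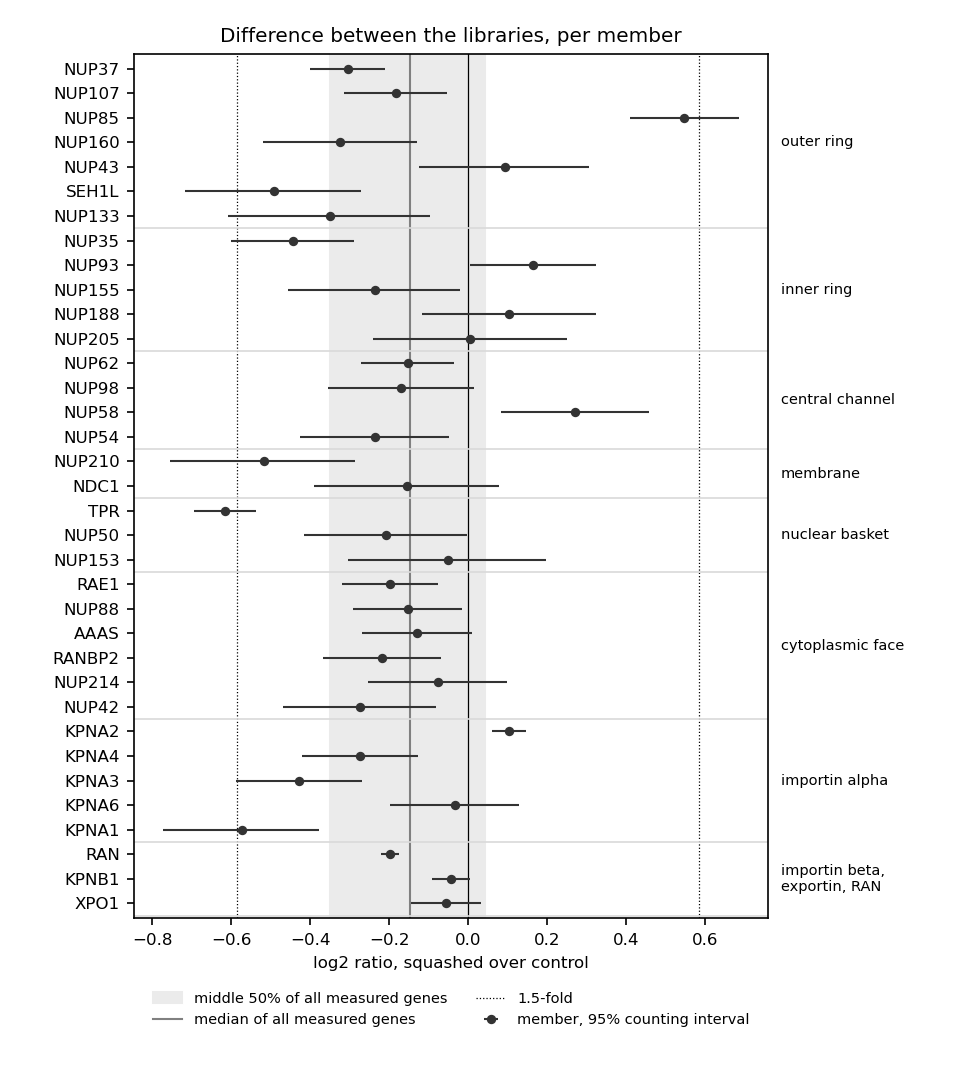
Log2 ratio of squashed over control for each measured member, with 95% counting intervals, by class. The grey band holds the middle 50% of all 6120 measured genes (-0.35 to 0.04) and dotted lines mark 1.5-fold. TPR lies past the lower line, NUP85 just inside the upper line, and the median of the members (-0.18) close to that of all genes (-0.15).

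The inner ring, which joins the outer rings to the membrane and the central channel, was split. NUP35, which contacts the membrane, was lower (23.4 CPM in squashed and 31.9 CPM in control cells, -0.44, -0.60 to -0.29), while NUP93, the scaffold that holds the channel proteins, was at 26.9 and 24.02 CPM (0.16, 0.00 to 0.32). NUP155 was at -0.24, NUP188 at 0.10 and NUP205 at 0.00. The central channel is filled by proteins with phenylalanine-glycine repeats that form its permeability barrier. Of these NUP62 was at 44.9 and 50 CPM (-0.15), NUP98 at -0.17 and NUP54 at -0.24, while their partner NUP58 was at 20.4 CPM in squashed and 17 CPM in control cells (0.27, 0.08 to 0.46). On the cytoplasmic face, where export complexes are taken apart, the 6 members lay between -0.27 for NUP42 and -0.08 for NUP214. The membrane nucleoporins NUP210 and NDC1 were at -0.52 (-0.76 to -0.29) and -0.16 (-0.39 to 0.08).

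The importin alpha genes differed among themselves. KPNA1 stood at 14.3 CPM in squashed and 21.3 CPM in control cells (-0.57, -0.77 to -0.38), the lowest ratio after TPR, and KPNA3 at 22.6 and 30.5 CPM (-0.43, -0.59 to -0.27). KPNA4 was at -0.27 and KPNA6 at -0.03. KPNA2 was at 0.10 (0.06 to 0.15), with the opposite sign under a stricter cell filter (-0.14), in cells thinned to 2000 UMIs (-0.05) and as a mean of per-cell CPM (-0.06). As a class the 7 importin alpha genes summed to 453 CPM in squashed and 449 CPM in control cells (0.01, -0.03 to 0.05). RAN was at -0.20 (-0.22 to -0.18), KPNB1 at -0.04 (-0.09 to 0.00) and XPO1 at -0.06 (-0.14 to 0.03). RAN and KPNA2 have processed pseudogenes, and reads lost to such copies would make their values uncertain. For RANBP2 the RGPD copies in the tables summed to 26 UMIs in squashed and 60 in control cells, against 640 and 877 UMIs of RANBP2 itself.

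Between phases of the cell cycle the members differed by more than 1.5-fold in most cases. Phases were called from the published cell cycle gene lists, which hold none of the members, on cells thinned to 2000 UMIs, which left 759 G2/M-called and 815 G1-called cells in the squashed library and 999 and 649 in the control library. Summed over all members, the level in cells called G1, S and G2/M was 1549, 2577 and 3742 CPM in the squashed library and 1762, 2782 and 3888 CPM in the control library. RAN and KPNA2 made up a large part of these sums. From G1-called to G2/M-called cells RAN went from 752 to 1539 CPM in squashed and from 715 to 1806 CPM in control cells. KPNA2 went from 96.7 to 651 CPM and from 81.1 to 556 CPM. Of the 35 measured members, 22 were at least 1.5-fold higher in G2/M-called than in G1-called cells in both libraries, where 24.8% of all measured genes were. By that size 0 were lower in both, where 6.44% of all genes were. The median log2 ratio of the members was 1.47 in the squashed and 1.02 in the control library, beside 0.38 and 0.14 for all measured genes. In the squashed library 31 members were higher by that size and 0 lower (38.2% and 7.57% of all genes), and in the control library 22 were higher and 1 was lower (28.7% and 17.2%). The phases are ranges of a score within 1 library and their cells are not replicates, so these are descriptions. At 2000 UMIs the median number of genes in G2/M-called and G1-called cells was 834 and 642 in the squashed and 860 and 809 in the control library, so that gene numbers moved with the phases. In cells with at least 2000 genes, a setting chosen after the data had been seen, the count was again 22 of 35, where 16.7% of all genes passed.

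KPNA2 had the largest ratio. KPNA2 (ENSG00000182481, chromosome 17 from 68035636 to 68047364, plus strand, GRCh38) stood at 651 CPM in G2/M-called and 96.7 CPM in G1-called squashed cells, a 6.73-fold difference (log2 2.75, 2.65 to 2.85). In control cells it stood at 556 and 81.1 CPM, a 6.85-fold difference (2.78, 2.67 to 2.88). The 2 ratios lay within each other's counting intervals. Importin alpha holds spindle assembly factors such as TPX2 inactive until RAN releases them around the chromosomes, which is the role for which KPNA2 is known in mitosis. At 2000 UMIs per cell a KPNA2 UMI was seen in 57.2% of G2/M-called (53.6 to 60.7) and 17.8% of G1-called (15.2 to 20.6) squashed cells, and in 56.2% (53.0 to 59.3) and 14.02% (11.4 to 16.9) of control cells. Without thinning these shares were 86.4% and 48.2%, and 90% and 58.7%. RNA free in the droplets adds UMIs to cells that do not express a gene, and A549 offers no cell type known to lack KPNA2. NUP210L was seen in 0 of 1782 squashed and 0 of 1825 control cells, and 3 counts of these totals, the limit used for a count of 0, would be shares of 0.168% and 0.164% of cells with a UMI, which does not limit the cells that express it.

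**Figure D3:**
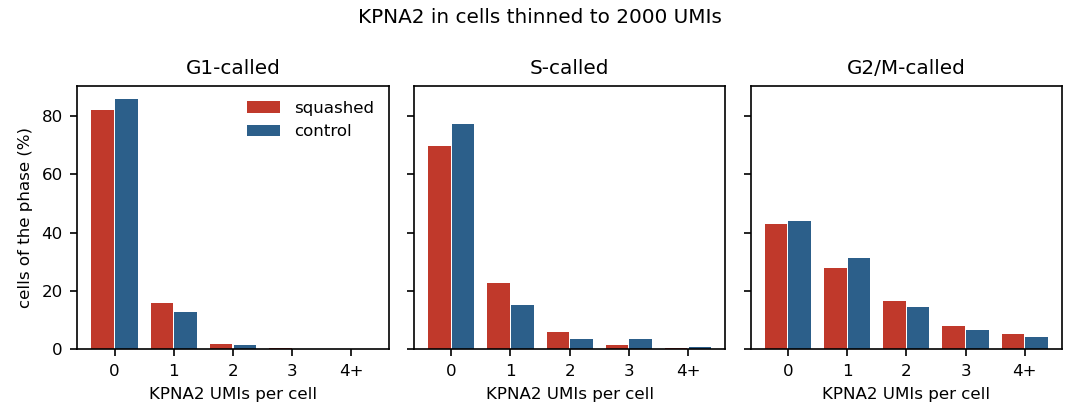
Number of KPNA2 UMIs per cell in cells thinned to 2000 UMIs, as a percentage of the cells called G1, S and G2/M in the squashed and the control library. Cells with at least 4 UMIs make up 5.01% of G2/M-called squashed and 4.0% of G2/M-called control cells and 0% of G1-called cells in both.

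Most members of the ring scaffold and the channel passed the 1.5-fold limit. All 5 inner ring members and all 4 central channel members were at least 1.5-fold higher in G2/M-called cells in both libraries. So were 5 of the 7 outer ring members, the exceptions being NUP133 and NUP160. NUP35 was at 37.7 and 9.13 CPM in G2/M-called and G1-called squashed cells (log2 2.04, 1.71 to 2.39) and at 48.9 and 11.4 CPM in control cells (2.09, 1.82 to 2.39). NUP37 was at 101.6 and 28.1 CPM in squashed (1.85, 1.66 to 2.05) and 119 and 32.6 CPM in control cells (1.86, 1.70 to 2.04). These pairs nearly coincided between the libraries. NUP93 had log2 ratios of 1.52 in squashed and 1.84 in control cells, NUP85 of 1.90 and 1.53, NUP107 of 1.87 and 1.48, and SEH1L of 1.79 and 1.29. The large scaffold proteins NUP155, NUP188 and NUP205 were at 1.81 and 1.13, 1.58 and 0.96, and 1.79 and 1.16. The channel proteins lay close together, NUP54 at 1.49 and 1.32, NUP58 at 1.47 and 1.02, NUP62 at 1.31 and 0.94 and NUP98 at 1.5 and 1.27. RAE1, an mRNA export factor of the cytoplasmic face that also acts in the spindle checkpoint, was at 67.2 and 16.9 CPM in squashed (1.99, 1.74 to 2.24) and 70.5 and 19.6 CPM in control cells (1.84, 1.63 to 2.07).

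In the cytoplasmic filaments and the basket fewer members passed. Of the cytoplasmic face RAE1, NUP88 (1.49 in squashed and 1.20 in control cells) and AAAS (1.03 and 1.31) passed 1.5-fold in both libraries, and RANBP2, NUP214 and NUP42 did not. Of the basket NUP50 passed (1.61 and 1.02), and NUP153 and TPR did not. KPNA2 was the 1 importin alpha of 5 measured that passed. RAN was at 1539 and 752 CPM in G2/M-called and G1-called squashed cells (1.03, 0.99 to 1.07) and at 1806 and 715 CPM in control cells (1.34, 1.30 to 1.38). XPO1 passed with 1.51 in squashed and 0.85 in control cells, and KPNB1 did not, with 0.84 and 0.56. Of the remaining members that passed, NDC1, the membrane anchor, had the highest ratios (1.91 in squashed and 1.62 in control cells) and NUP43 the lowest ratio in squashed cells (0.80, with 0.90 in control cells).

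**Figure D4:**
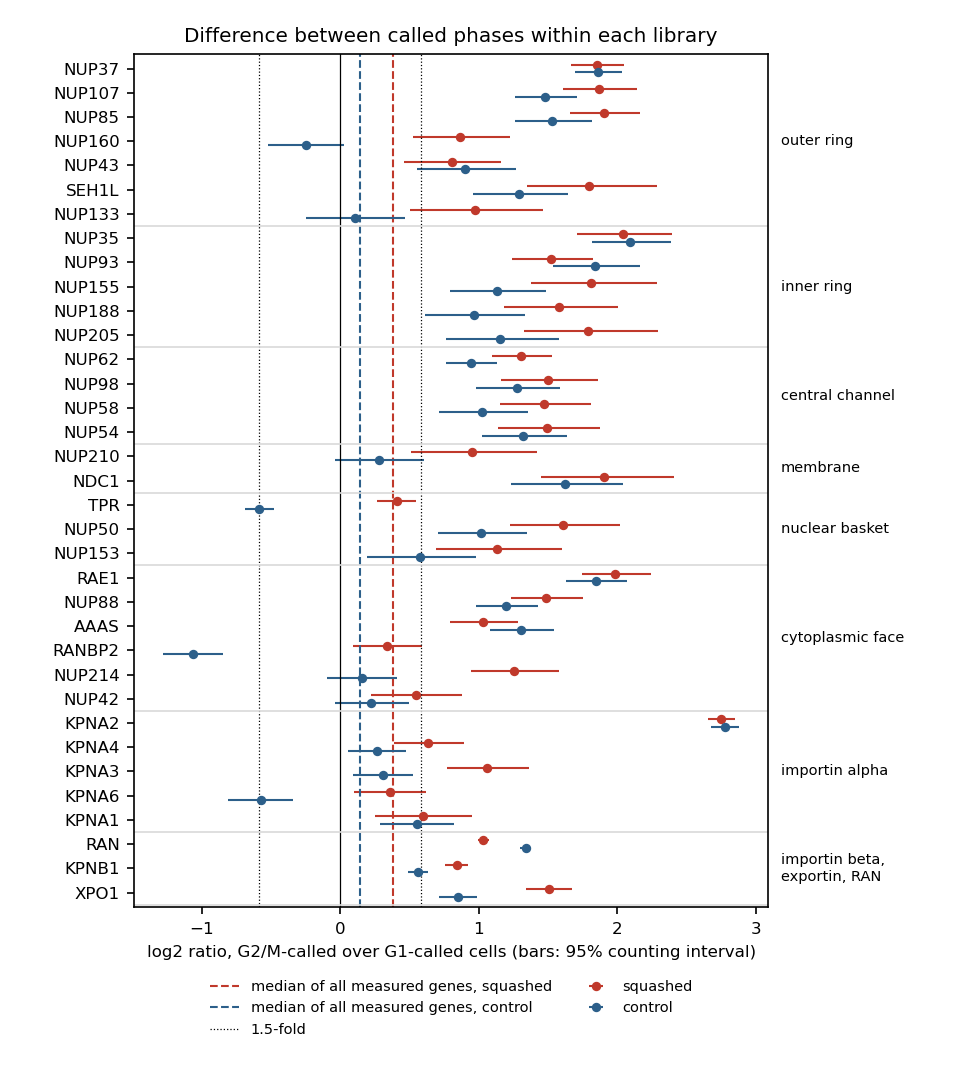
Log2 ratio of G2/M-called over G1-called cells for each measured member in the squashed and the control library, with 95% counting intervals, by class. Dashed lines give the median of all measured genes (0.38 in squashed and 0.14 in control cells) and dotted lines mark 1.5-fold. KPNA2 lies farthest to the right, the ring and channel members lie mostly past the dotted line, and TPR, RANBP2, KPNA6 and NUP160 lie left of 0 in the control library.

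The promoters of the 3 members with the highest ratio in the control library, KPNA2, NUP35 and NUP37, are shown because these genes moved together with the phase calls, with that of RANBP2 as a member that did not. The sequences are RefSeq's, build GRCh38.p14, from 250 bases before to 50 after the annotated start, 5′ to 3′ on the gene's strand. They lie at chr17:68035485-68035784 (plus strand) for KPNA2, chr2:183124193-183124492 (plus strand) for NUP35, chr12:102120065-102120364 (minus strand) for NUP37 and chr2:108719232-108719531 (plus strand) for RANBP2. Capitals mark CCAAT, the box bound by the factor NF-Y, and TTTGAA, the core letters of the cell cycle homology region (CHR) known from promoters of G2/M genes, each searched on both strands together with the E2F-type letters GGCGGGAA. In these windows no motif overlaps another.
KPNA2: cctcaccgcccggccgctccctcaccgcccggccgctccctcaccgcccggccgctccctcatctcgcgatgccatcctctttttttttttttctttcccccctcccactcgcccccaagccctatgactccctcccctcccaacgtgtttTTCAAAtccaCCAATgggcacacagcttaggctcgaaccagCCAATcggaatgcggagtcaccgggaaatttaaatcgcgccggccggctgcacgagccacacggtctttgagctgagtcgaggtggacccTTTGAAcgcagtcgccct
NUP35: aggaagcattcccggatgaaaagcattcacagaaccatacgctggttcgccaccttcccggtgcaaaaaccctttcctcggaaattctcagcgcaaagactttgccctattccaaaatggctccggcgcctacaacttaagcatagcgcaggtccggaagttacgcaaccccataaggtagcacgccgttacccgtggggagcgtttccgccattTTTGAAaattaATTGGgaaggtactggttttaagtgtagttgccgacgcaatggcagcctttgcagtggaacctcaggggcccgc
NUP37: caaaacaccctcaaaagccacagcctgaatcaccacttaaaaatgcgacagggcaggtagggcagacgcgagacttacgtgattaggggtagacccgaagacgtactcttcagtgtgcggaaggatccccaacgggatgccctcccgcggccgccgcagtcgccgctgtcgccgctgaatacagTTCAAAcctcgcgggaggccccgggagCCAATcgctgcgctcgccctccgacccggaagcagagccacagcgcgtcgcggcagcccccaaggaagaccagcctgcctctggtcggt
RANBP2: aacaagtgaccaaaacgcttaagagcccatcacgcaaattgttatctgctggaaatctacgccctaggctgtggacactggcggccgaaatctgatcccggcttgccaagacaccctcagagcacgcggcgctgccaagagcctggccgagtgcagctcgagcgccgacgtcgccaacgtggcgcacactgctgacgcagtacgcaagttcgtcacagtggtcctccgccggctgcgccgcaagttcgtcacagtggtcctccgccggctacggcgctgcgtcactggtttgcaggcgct

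KPNA2, NUP35 and NUP37 each hold both CCAAT and TTTGAA, and RANBP2 holds none of the 3 motifs. The members did not divide this way throughout. RAE1, with phase ratios of 1.99 in squashed and 1.84 in control cells, also holds none of the 3. TPR and KPNA6, which like RANBP2 did not pass 1.5-fold upward in both libraries, hold CCAAT but not TTTGAA. A promoter was listed for 35 of the 40 members. Of the 22 members higher in G2/M-called cells, 21 had one, and TTTGAA was found in 7 of these (33.3%), in 1 of the 14 other members with a promoter (7.14%) and in 15.4% of all 27305 promoters of the same length. CCAAT was found in 10 of the 21 (47.6%), in 6 of the 14 (42.9%) and in 35.7% of all promoters. GGCGGGAA was found in 1 of the 21 (4.76%), in 3 of the 14 (21.4%) and in 3.18% of all. The 14 include POM121, NUP62CL and NUP210L, which were under the limit for a measured gene. Of these NUP62CL was also higher by 1.5-fold in G2/M-called cells (log2 1.13 in squashed and 1.34 in control cells). NUP62CL holds CCAAT and GGCGGGAA, and NUP210L holds CCAAT. These are matches of letters and were not tested.

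TPR, RANBP2 and KPNA6 had phase ratios of opposite sign in the 2 libraries, with counting intervals wholly on opposite sides of 0. NUP160 also differed in sign (0.87 in squashed and -0.25 in control cells), but its interval in control cells spanned 0 (-0.52 to 0.03). RANBP2, the largest cytoplasmic filament protein and a SUMO ligase, was at 30.5 and 24.1 CPM in G2/M-called and G1-called squashed cells (log2 0.34, 0.09 to 0.59) and at 21.2 and 44.3 CPM in control cells (-1.06, -1.28 to -0.85). TPR was at 96.4 and 72.7 CPM in squashed (0.41, 0.27 to 0.55) and 106 and 159 CPM in control cells (-0.58, -0.69 to -0.48). KPNA6 was at 28.2 and 22.01 CPM in squashed (0.36, 0.10 to 0.62) and 20.5 and 30.6 CPM in control cells (-0.57, -0.81 to -0.34). The median of all measured genes was 0.38 in the squashed and 0.14 in the control library. The ratios of TPR, RANBP2 and KPNA6 lay close to it in the squashed library and under it in the control library. Between the libraries, 9 of the 35 members were at least 1.5-fold lower in squashed than in control cells called G1, where 26.9% of all genes were, and 0 were higher (3.68%). The share of lower members was thus near that of all genes. The 9 lower members were TPR, NUP210, NUP133, NUP160, KPNA3, RANBP2, NUP214, SEH1L and NUP155, with log2 ratios between -1.13 and -0.73. In cells called G2/M 0 were lower and 1, NUP85, was higher (8.32% and 5.26% of all genes).

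To see the members within groups of cells, all kept cells were clustered. Every gene was centred within its library, and the 40 members were left out of the genes clustered. This gave 6 states, called by number. The make-up of the libraries differed, so centring does not ensure that the cells of a state are alike in both. State 0, led by MKI67, TOP2A and HMMR, held 375 squashed and 547 control cells. State 1, led by MTRNR2L8 with the mitotic genes CDC20 and PLK1 further down, held 386 and 523. State 2, led by the nuclear RNAs NEAT1 and MALAT1, held 388 and 464 and had the most UMIs per cell (medians 23122 and 21308). State 3, led by CRYAB and TAGLN, held 661 squashed and 93 control cells with medians of 1280 and 1779 genes. State 4 held 119 and 98 cells with little mitochondrial RNA. State 5 held 1 squashed and 181 control cells, so no ratio was formed in it. Like state 3, state 5 had CRYAB among its leading genes, after C9orf16 and VTN, and its control cells had a median of 1212 genes. State 3 held 64.3% of G1-called squashed and 7.40% of G1-called control cells, whereas state 2 held 27% and 50.7%. With states 3 and 5 left out, a choice made after the data had been seen, RANBP2 was lower in G2/M-called cells of both libraries, with log2 ratios of -0.35 in squashed and -1.39 in control cells. TPR was then at -0.23 and -0.92 and KPNA6 at -0.15 and -0.89. The count of members higher by 1.5-fold in both libraries was then 21 of 35, where 14.9% of all genes passed.

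Most members had their highest level in state 0, and a small group had it in the NEAT1-rich state 2. Among states 0 to 3, 25 of the 35 measured members peaked in state 0 in both libraries and 7 peaked in state 2 in both, namely TPR, RANBP2, KPNA6, NUP133, NUP160, NUP210 and NUP42. Of all measured genes 28.7% peaked in state 0 in both libraries and 36.4% in state 2. A peak is the highest level alone, and some margins were small. The level of NUP42 in state 2 was 1.16-fold that in state 0 in squashed and 1.08-fold in control cells. For NUP160 it was 1.07-fold in squashed and 1.80-fold in control cells. TPR stood at 148 CPM in squashed and 235 CPM in control cells of state 2, and at 81.5 and 95.7 CPM in state 0. RANBP2 stood at 46.6 and 61.2 CPM in state 2 and at 28.6 and 18.5 CPM in state 0. The summed nuclear RNAs NEAT1, MALAT1 and KCNQ1OT1 moved with these levels, at 25115 CPM in squashed and 25829 CPM in control cells of state 2 and 5181 and 3227 CPM in state 0. Their part in the levels of TPR and RANBP2 was not tested. KPNA2 ran the other way, with 652 and 620 CPM in state 0 and 356 and 206 CPM in state 2.

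**Figure D5:**
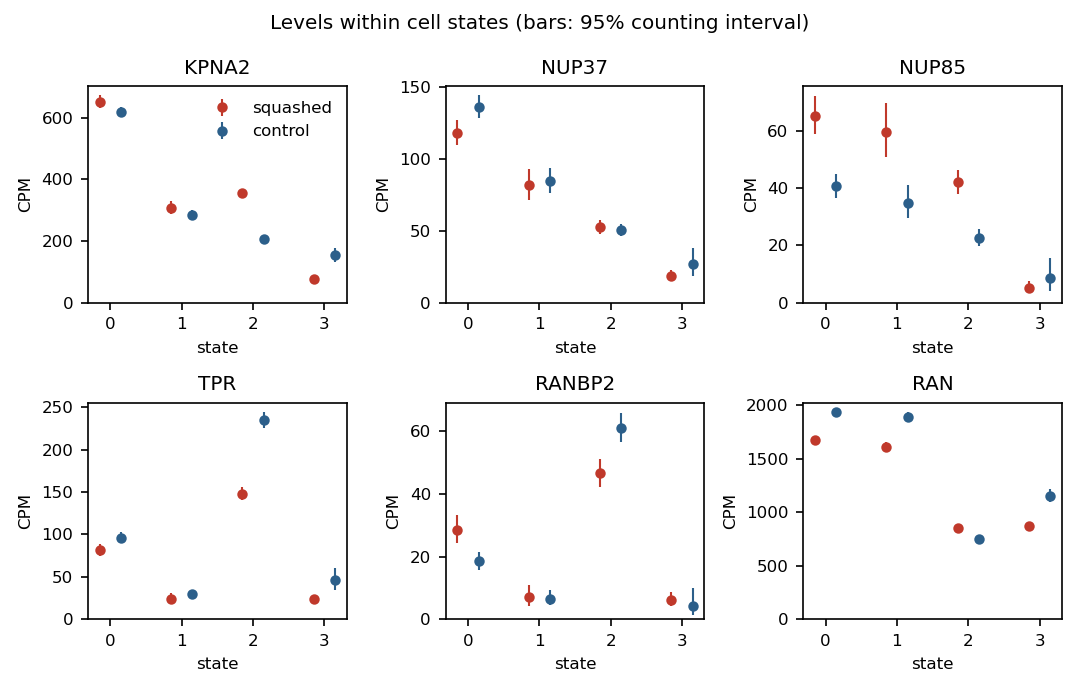
Levels of KPNA2, NUP37, NUP85, TPR, RANBP2 and RAN in states 0 to 3 in the squashed and the control library, in CPM with 95% counting intervals. KPNA2, NUP37 and NUP85 are highest in state 0, TPR and RANBP2 in state 2. NUP85 is higher in the squashed library in states 0, 1 and 2.

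Within states the ratio between the libraries kept its side for some members and not for others. NUP85 was higher in squashed cells of state 0 (65.2 and 40.5 CPM, log2 0.69, 0.47 to 0.90), of state 1 (59.7 and 34.9 CPM, 0.77, 0.45 to 1.10) and of state 2 (41.9 and 22.6 CPM, 0.89, 0.66 to 1.13). In state 3 the sign was the opposite, at 5.14 CPM in squashed and 8.41 CPM in control cells, from 28 and 10 UMIs, and the interval spanned 0 (log2 -0.76, -1.80 to 0.50). TPR was lower in squashed cells in all 5 states with both libraries, between -0.23 in state 0 and -1.51 in state 4, and its interval spanned 0 in state 1 (-0.73 to 0.16). The state with the most TPR UMIs, state 2, had a ratio of -0.67 (-0.76 to -0.57).

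There were 6 members whose counting intervals lay above 0 in 1 state and under 0 in another: KPNA2, KPNA6, NUP88, RAE1, RAN and RANBP2. Of all measured genes 15.6% met the same criterion, so this share is near the background. These sides are taken from 0. The median of all genes was -0.03 in state 0, -0.05 in state 1, -0.08 in state 2, -0.37 in state 3 and -0.20 in state 4. RAN was lower in squashed cells of state 0 (1676 and 1934 CPM, -0.21, -0.24 to -0.17) and state 1 (-0.23, -0.29 to -0.18). It was higher in state 2 (850.2 and 753 CPM, 0.17, 0.13 to 0.22). In state 3 RAN was under 0 (-0.40) but close to the median of all genes. RANBP2 was higher in squashed cells of state 0 (0.63, 0.31 to 0.95) and lower in state 2 (-0.39, -0.57 to -0.21), and KPNA6 did the same (0.43 and -0.23). KPNA2 was higher in squashed cells of state 2 (0.79, 0.71 to 0.87) and of state 4 (0.98) and lower in state 3 (76 and 154 CPM, -1.02, -1.27 to -0.76). RAE1 and NUP88 were likewise above 0 in state 2, at 0.39 and 0.26, and under 0 in state 3, at -1.27 and -1.06. In state 2, 91 of 388 squashed and 60 of 464 control cells were called G2/M, and the part of these shares in the KPNA2 ratio was not tested.

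Other genes of nuclear transport, from importins and exportins to RAN regulators and mRNA export factors, were set beside the members. Of 34 such genes 26 were measured, with a median log2 ratio of -0.06 between the libraries. Of these 26, 0 were at least 1.5-fold higher in squashed cells, where 2.88% of all measured genes were. RANBP1, which helps RAN to turn over GTP, was at 42.3 CPM in squashed and 59.4 CPM in control cells (-0.49, -0.61 to -0.38), RCC1, the exchange factor that loads RAN with GTP on chromatin, at 29.7 and 35 CPM (-0.24) and RANGAP1, the RAN GTPase activator, at 30.5 and 36.1 CPM (-0.24). CSE1L, which returns importin alpha to the cytoplasm, was at 66.9 and 64.6 CPM (0.05), and NUTF2, the importer of RAN, at 124 and 129.5 CPM (-0.06). IPO4, XPO6 and XPO7 were at -0.29, 0.24 and -0.23.

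Across phases the RAN regulators RCC1 and RANBP1 and the exporter CSE1L had high ratios. Of the 25 measured genes of this list that were not used to call the phases, 12 (48.0%) were at least 1.5-fold higher in G2/M-called cells in both libraries. Of all measured genes 24.8% were. RCC1 was at 46.7 and 12.1 CPM in G2/M-called and G1-called squashed cells (log2 1.95, 1.66 to 2.25) and at 53.1 and 13.8 CPM in control cells (1.94, 1.69 to 2.21). RANBP1 had log2 ratios of 1.79 in squashed and 2.04 in control cells, and CSE1L, the export partner of KPNA2, 1.74 and 1.68. RANGAP1 is in the G2/M list itself and gives no measure of its own here. The importins IPO7 and IPO9, the transportin TNPO1 and the ring subunit SEC13 did not pass 1.5-fold in either library.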

How the data were processed

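RNA was captured with the Chromium 3.1 kit of 10x Genomics, and the authors deposited raw UMI counts per gene and barcode made with Cell Ranger against GRCh38 (version 5.0.1 per the labels' design text, 4.0.0 per the file headers). How barcodes were called cells was not given in the sources used here. Barcodes under 1000 UMIs or 500 genes, or over 20% mitochondrial UMIs, were dropped. Scrublet in scanpy 1.11.5 called 15 squashed and 14 control doublets, which stayed in. The kept cells' UMIs were summed per library and scaled to CPM. Log2 ratios used a prior of 0.5 count, with exact Clopper-Pearson 95% intervals. Phases were scored with scanpy, and states came from Leiden clustering (leidenalg 0.10.2, resolution 0.5, 2000 variable genes, 30 components, 15 neighbours) in Python 3.11.15. TMM factors came from edgeR 4.0.16. Positions are from GENCODE 44. The ratio and thinning steps were tested on simulated data.

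The members, gene lists and comparisons were chosen with earlier results of these data known. Values were given for members at least 1.5-fold apart between libraries or phases, for the member with the most UMIs of each class and for members whose direction differed among states, and further members were named to account for each class, after their values had been seen. The nuclear RNAs set beside the states were also chosen then. Of other transport genes, RCC1, RANGAP1, RANBP1, CSE1L, NUTF2 and those among the 6 largest absolute ratios were named, except for a result that is not reported here, and further ones were named after their values had been seen. Use of strand in counting was not given in the sources used here. Exons of KPNA1, NUP43, NUP62, NUP88, NUP98 and NUP188 overlap expressed genes on the opposite strand. Their reads may therefore be mixed with those of the partners. The partner of KPNA1, AC083798.2, had 129 UMIs in squashed and 80 in control cells, against 333 and 584 UMIs of KPNA1.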

Additional observations from a re-analysis of the deposited data

Results flagged for a closer look

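TPR, RANBP2 and KPNA6 are given here because the ratio of G2/M-called over G1-called cells had opposite signs in the 2 libraries, with counting intervals wholly on opposite sides of 0. The log2 ratio of RANBP2 was 0.34 in the squashed and -1.06 in the control library. That of TPR was 0.41 in the squashed and -0.58 in the control library, and that of KPNA6 was 0.36 and -0.57. With 1 library per group the difference between the libraries was not tested.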

How the results depend on the processing

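The summed members stood at -0.15 and the median member at -0.18 (log2, squashed over control), with 1 member lower and 0 higher by 1.5-fold. Choices of scale and cells moved these. With TMM scaling the sum was 0.0022 and the median -0.033, with 0 lower and 1 higher. With totals without mitochondrial and ribosomal protein genes the sum was -0.090, with 0 lower and 1 higher. The mean of per-cell CPM gave -0.25 and -0.30, with 2 lower, where the median of all genes was -0.21. Thinning to 2000 UMIs gave -0.26 and -0.26, with 5 lower and 1 higher, where the median of all genes was also -0.21. Thinning to 10000 UMIs gave a sum of -0.12 (median of all genes -0.11). A stricter cell filter gave a sum of -0.23 (median of all genes -0.096). Cells with at least 2000 genes gave -0.053 and -0.030, with 0 lower and 1 higher (median of all genes -0.064). All barcodes gave 0 lower, a filter of at least 1 UMI in each library 1 higher, a smaller fold limit gave 8 lower and 1 higher, and a fold limit of 2 gave 0 lower. For the settings of this paragraph the share of all genes past the fold limit is not given. Their counts of members can therefore not be set against all genes.

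Within G1-called cells the sum was -0.19 and the median -0.38, with 9 lower (26.9% of all genes). Within S-called cells the sum was -0.11, with 3 lower and 1 higher (14.8% and 4.97%). Within G2/M-called cells the values were -0.055 and -0.036, with 0 lower and 1 higher (8.32% and 5.26%). State 0 gave -0.081 and -0.061, with 0 lower and 3 higher (9.53% and 5.88%). State 1 gave -0.098 and 0.036, with 0 lower and 1 higher (11.5% and 8.61%). State 2 gave 0.086 and -0.0027, with 1 lower and 3 higher (12.2% and 5.93%). State 3 gave -0.49 and -0.55, with 16 lower and 2 higher, where 38.2% and 6.83% of all genes were and their median was -0.37. State 4 gave 0.049 and 0.045, with 12 lower and 6 higher, where 32.1% and 16.1% of all genes were and their median was -0.20. Without states 3 and 5, chosen after the data had been seen, the values were -0.054 and -0.038, with 0 lower and 1 higher (9.15% and 3.56% of all genes). State 5 gave no value, since it held 1 squashed cell. Where a setting moved a value, the cause was not tested.

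The count of members higher in G2/M-called cells in both libraries, 22 of 35, was 12 of 19 at a mean of at least 20 CPM, where fewer members were measured (27% of all genes passed), and between 18 of 35 at a fold limit of 2 (11.2% of all genes) and 30 of 35 under the stricter cell filter (39.3%) in the other settings tried. TPR lay under 0 in 23 of 23 alternatives, by 1.5-fold in 13. NUP85 was higher by 1.5-fold in 9 of 23. These alternatives include settings that changed only which genes counted as measured. Such settings left the ratios of TPR and NUP85 as they were. They are counted in the 23 of both genes, and for TPR also in the 13, without being separate evidence. No paired analysis was possible because each group has 1 library. The counts limit members near 10 CPM most: the interval of NUP133 was -0.61 to -0.10.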
